A study of Homo sapiens with 10 samples.

Results

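Clone H3 is 1 of 4 SHIP2 knock-out clones of KYSE-410, a human cell line from a squamous carcinoma of the oesophagus, and it was compared here with the study's control colony. The members of the comparison were chosen by name, as the 2 libraries labelled H3 and the 2 libraries labelled as the empty-vector control out of 10 libraries. Genes entered if they reached 1 CPM (a gene's reads scaled so that every library has the same total) in at least 2 of these 4 libraries, which kept 16976 of 58302 genes. The control colony had received the Cas9 nickase vector without a guide RNA. Clone H3 and the clones D4, G4 and G10 had received the nickase with guides against INPPL1, the gene that encodes SHIP2. In every group a GFP reporter was delivered with the plasmids, GFP-positive cells were sorted singly, and the knock-out clones were screened for SHIP2 by western blot, per the labels. Each group had 2 libraries of total RNA made with the Ovation Solo kit. Clone H3 is 1 clone and the control is 1 colony, so each test below sets 1 clone against 1 colony. Nothing in the labels says that the 2 libraries of a group came from separate cultures. The p-values therefore measure the spread between libraries, which may be technical.

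SHIP2 is a phosphatase that removes the 5-phosphate from the inositol lipid made by phosphoinositide 3-kinase, the lipid that recruits AKT to the membrane. It also acts as a scaffold at the plasma membrane, where it meets growth factor receptors, the endocytic machinery and the actin cytoskeleton. Squamous carcinoma lines such as KYSE-410 carry a basal keratinocyte programme, with p63, stratified keratins and hemidesmosome components, and many depend on signalling from the EGF receptor family.

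The estimated depth was 11196336 and 13077249 gene-assigned reads for the control libraries, and 11960860 and 13319023 for the H3 libraries. A count of 0 allowed up to 3 reads, or 0.225 to 0.268 CPM in these 4 libraries, and covers counting error only. Of the 34 basal squamous markers listed, 31 entered the test, with TP63 at 216 and 193 CPM in the control. KRT14, a basal keratin, was near the floor in both groups, at 0.999 and 1.40 CPM in the control and 0.45 and 0.35 CPM in H3. Of 20 markers of endothelial and immune cells, 18 did not enter the test and lay at or under 0.799 CPM in each of the 4 libraries, and 7 were at 0 in all of them. The summed level of that list was 41 and 40 CPM in the control and 17.7 and 17.8 CPM in H3, most of it CD68. Fewer cells of a type and less RNA per cell cannot be told apart in such bulk libraries.

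INPPL1, the targeted gene (ENSG00000165458, hg38 chr11:72223701-72239105), lay at 140.0 and 149.8 CPM in the control and at 88.1 and 85.3 CPM in H3. The 2 groups did not overlap, and the transcript was reduced in H3 but not lost. The log2 fold change was -0.73 ± 0.08 (SE, 2 libraries a group, limma with Benjamini-Hochberg adjustment, adjusted p = 1.98e-06). Clone D4 held 83.6 and 93.3 CPM, a range that overlaps that of H3. Clone G4 held 65.4 and 64.4 CPM, and clone G10 held 9.49 CPM in each library. Against the mean of D4, G4 and G10, INPPL1 was higher in H3 by 1.15 on the log2 scale (adjusted p = 2.44e-09). The 50 genes around INPPL1 had a median log2 fold change of -0.48 in H3. The fall of INPPL1 was -0.25 (adjusted p = 0.0191) once that median was subtracted. This p-value takes the median as fixed and does not measure the spread among the 50 genes.

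Expression differed widely between clone H3 and the control. Of the 16976 genes tested, 8076 (47.6%) passed the test, with 4204 (24.8%) higher and 3872 (22.8%) lower in H3. The genes that also changed at least 2-fold numbered 685 (4.04%) higher and 586 (3.45%) lower, on the log2(CPM + 1) scale used throughout. This scale understates the change of genes at a few CPM. In the same fit, against the same 2 control libraries, the genes called at 2-fold or more were 424 higher and 624 lower in D4, 60 and 246 in G4, and 312 and 473 in G10. The SD of the log2 fold changes over all genes was 0.606 for H3, 0.561 for D4, 0.511 for G10 and 0.367 for G4.

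The 15 largest rises included an interferon-induced membrane protein, a matrix proteoglycan and a cancer-testis antigen. BST2 (tetherin, which holds budding virus at the cell surface) went from 0.1 and 0.5 CPM in the control to 77.6 and 73.6 CPM in H3. Its log2 fold change was 5.90 ± 0.14 (SE, adjusted p = 1.7e-13), and it was also high in D4 (mean 68.0 CPM) and G10 (32.4 CPM) but not in G4 (0.4 CPM). LUM, which encodes the collagen-binding proteoglycan lumican, went from 4.50 and 4.55 CPM to 119 and 116 CPM, a log2 fold change of 4.42 ± 0.10. The D4 mean was 53.4 CPM and the G10 mean 28.2 CPM, so H3 held the most LUM of the 5 groups. MAGEA11, a cancer-testis antigen encoded on the X chromosome, had no read in either control library and 16.9 and 17.5 CPM in H3. Against a floor of 3 reads per library this was at least 69.2-fold higher.

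Among the other large rises, CES1 (a carboxylesterase that hydrolyses lipid esters and drugs) went from 5.40 and 4.25 CPM to 63.0 and 54.7 CPM. METTL7A, a lipid droplet-associated methyltransferase, went from 4.60 and 3.75 CPM to 52.5 and 57.7 CPM. H19, an imprinted long non-coding RNA, went from 1.099 and 2.00 CPM to 30.4 and 29.9 CPM. All 3 were well apart from both control libraries, with log2 fold changes of 3.36, 3.44 and 3.63. RASGRP1, an exchange factor that activates RAS, rose by 3.83 on the log2 scale, from 1.199 and 0.799 CPM to 23.6 and 31.6 CPM. A further 7 of the 15 (DOCK8, PPARGC1A, MB, MCF2L, BTBD16, VGLL1 and LIMCH1) rose by 2.98 to 3.46. VGLL1, a cofactor of TEAD transcription factors, was highest in D4 (mean 56.7 CPM) and G10 (41.4 CPM), with 24.2 and 29.8 CPM in H3.

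The 15 largest falls were led by keratin 6A and by the enzyme that admits fatty acids to mitochondria. KRT6A went from 899 and 919 CPM in the control to 6.05 and 4.75 CPM in H3. That is a log2 fold change of -7.16 ± 0.13 (SE, adjusted p = 3e-13), and KRT6A was also low in D4 (mean 11.3 CPM) and G10 (6.97 CPM), with 232 CPM in G4. KRT6B and KRT6C are near-identical copies whose reads the counting could split, so the 3 values are uncertain as to the gene. CPT1A (carnitine palmitoyltransferase, the gate of fatty acid oxidation) went from 227 and 219 CPM to 1.80 and 2.00 CPM, a log2 fold change of -6.27 ± 0.10. D4 held a mean of 10.02 CPM, while G10 held 5.12 CPM and G4 held 157 CPM, so H3 was the lowest of the 5 groups. MMP1, interstitial collagenase, went from 110 and 95.5 CPM to 0.35 and 0.699 CPM (log2 fold change -6.10 ± 0.21). GSTP1, a glutathione transferase, fell from 44.7 and 49.7 CPM to 2 reads and 1 read.

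IGF2, an imprinted growth factor gene that neighbours H19 on chromosome 11, went from 51.4 and 52.8 CPM to 1.35 and 1.70 CPM, a log2 fold change of -4.40 ± 0.11. Its level in the other clones was 17.3 CPM in D4, 17.4 CPM in G4 and 23.8 CPM in G10. INS-IGF2, a read-through transcript that shares exons with IGF2, moved with it and cannot be told apart from it here. MEST, another imprinted gene, went from 101.2 and 103 CPM to 2.10 and 3.20 CPM (log2 fold change -4.84 ± 0.14). CDH6, a cadherin of the kidney and neural crest, went from 96.9 and 89.7 CPM to 1.95 and 2.15 CPM (log2 fold change -4.95 ± 0.10). For CDH6 the other clones ranged from a mean of 7.40 CPM in D4 to 129.8 CPM in G4. SERPINB2 and SERPINB10 overlap on the same strand and fell by 4.71 and 4.63 on the log2 scale, so reads of 1 may stand in both. WTAPP1 runs across MMP1 and MMP10 on the opposite strand, and the strand setting of the counting is not given in the sources used here. The other falls of the 15 (CHL1, GALNT18, LY6D, MMP10 and NLRP1) were between -4.59 and -4.27.

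**Figure D1:**
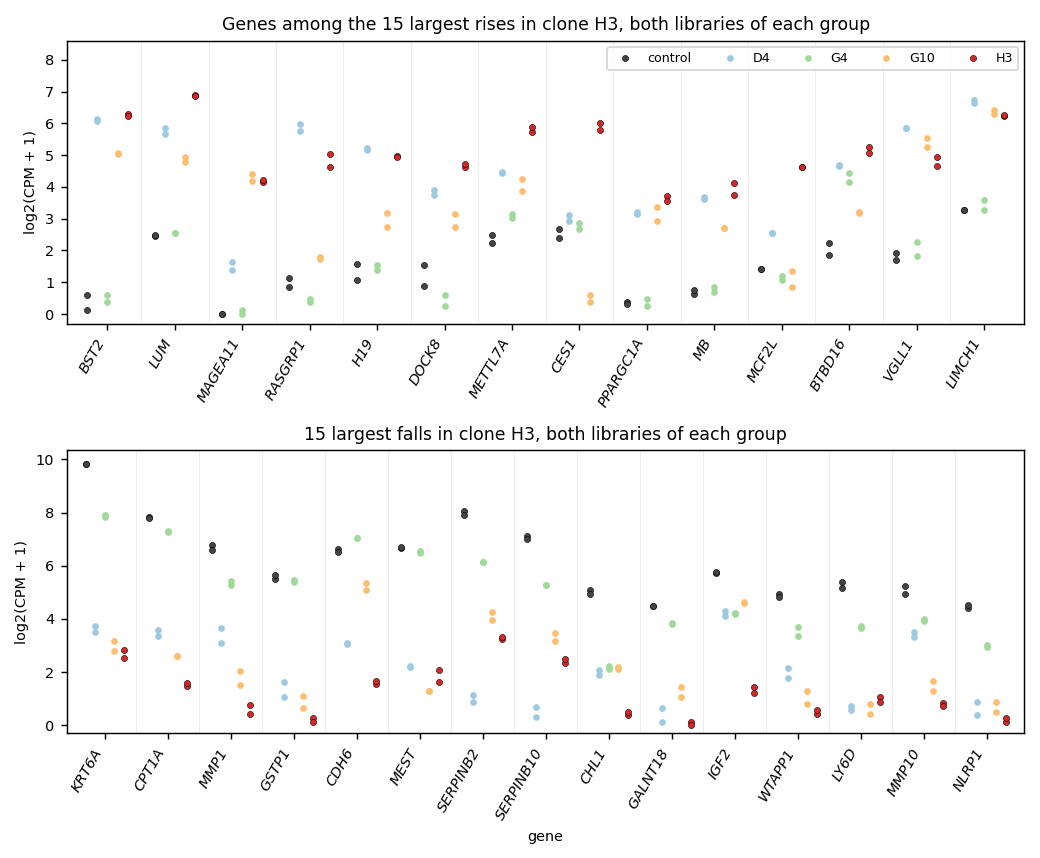
Levels of genes among the 15 largest rises (top) and of the 15 largest falls (bottom) of clone H3 against control. Each point is 1 library, as log2(CPM + 1); every group has 2 points per gene. For KRT6A the control libraries are at 899 and 919 CPM and the H3 libraries at 6.05 and 4.75 CPM.

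Some genes were present in 1 group and under 3 reads in each library of the other. In H3 there were 10 such losses among genes at 5 CPM or more in both control libraries, and 5 gains by the mirrored rule. ME3 (a mitochondrial malic enzyme), GPC6 (a cell surface glypican) and DMKN (dermokine, a secreted epidermal protein) had no read in either H3 library. They were at least 55.4-fold, 38.0-fold and 42.3-fold lower than the control, against the floor of 3 reads per library. ME3 was kept by the other clones at means of 7.62 CPM in D4, 10.7 CPM in G4 and 10.5 CPM in G10. FLI1, an ETS transcription factor, went from 113 and 156 reads to 0 and 2 reads, a depth-scaled ratio of 140 (95% exact interval 38.4 to 1163, counting error only). The other losses were GSTP1, GALNT18, NLRP1, KRT6C, AC083841.2 and AC113386.1, the last 2 being antisense to LY6D and CDH6. Besides MAGEA11, the gains included LINC00665, CASQ1 and the pseudogene FAHD2CP.

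Squamous lineage genes were mostly lower in H3. Of the 31 basal squamous genes tested, 23 fell and 4 rose, where 22.8% of all genes tested fell and 24.8% rose. The median log2 fold change was -0.76 against 0.01 over all genes tested. KRT17, a keratin of basal and activated keratinocytes, went from 424 and 449 CPM to 40.3 and 47.9 CPM. COL17A1, the transmembrane collagen of hemidesmosomes, went from 284 and 296 CPM to 33.9 and 30.0 CPM. DSG3, a desmosomal cadherin, went from 48.2 and 45.8 CPM to 5.65 and 5.35 CPM. Their log2 fold changes were -3.28, -3.14 and -2.89, and in each the H3 libraries lay far below the control.

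Genes of laminin-332, the basement membrane ligand of these cells, also fell. LAMA3 went from 1100.0 and 1030.5 CPM to 229 and 240.0 CPM, and LAMB3 from 918 and 988 CPM to 216 and 200.2 CPM. The log2 fold changes were -2.18 and -2.19. Transcription factors of the squamous lineage also fell. TP63 went from 216 and 193 CPM to 119 and 120.5 CPM (log2 fold change -0.76), and SOX2 from 6.996 and 7.80 CPM to 0.35 CPM in both libraries (-2.63). KRT5 (0.44), KRT15 (0.56), CDH3 (0.26) and GJB6 (0.29) were the 4 that rose. Of the 18 cornified envelope and differentiation genes tested, 10 fell and 5 rose, where 22.8% of all genes tested fell and 24.8% rose. KRT4 was among those that rose, from 1.35 and 1.099 CPM to 11.99 and 10.6 CPM.

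More genes of simple epithelia rose than fell. Of 29 tested, 13 rose, 3 fell and 13 did not pass the test, with a median log2 fold change of 0.19. Over all genes tested 24.8% rose and 22.8% fell. OVOL1 was lower in H3, at 47.8 and 43.5 CPM against 91.8 and 92.6 CPM in the control. CD24 was lower as well, at 104 and 117 CPM against 179.5 and 164 CPM. The paired simple keratins KRT8 and KRT18 rose by 1.18 and 1.09, KRT8 from 447 and 492 CPM to 1119 and 1010.05 CPM. SCNN1A encodes the alpha chain of the sodium channel of epithelia, and rose from 14.6 and 15.6 CPM to 89.5 and 84.6 CPM (log2 fold change 2.45 ± 0.08). WFDC2, a secreted protease inhibitor of glandular epithelia, rose from 26.9 and 34.3 CPM to 126 and 110.5 CPM (1.92). CDH1, E-cadherin, stood at 694 and 645 CPM in the control and 727 and 724 CPM in H3, a log2 fold change of 0.12 that did not pass the test (adjusted p = 0.13). Of 23 mesenchymal genes tested, 7 rose and 9 fell. VIM, the mesenchymal filament protein, rose from 1.90 and 2.15 CPM to 6.55 and 7.54 CPM, whereas SNAI2 and TGFBI fell by 0.72 and 0.67.

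**Figure D2:**
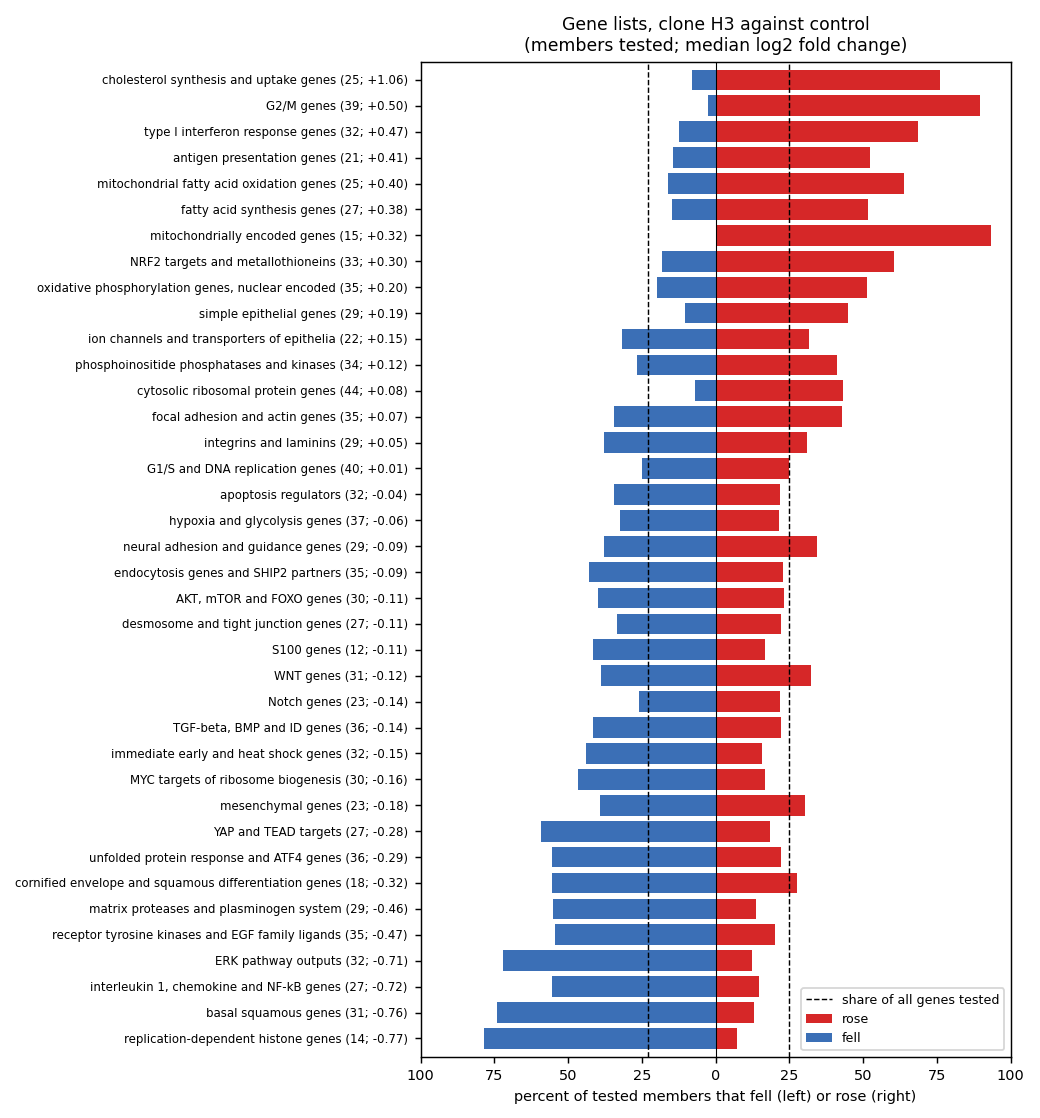
Share of the tested members of each gene list that rose (red) or fell (blue) in clone H3 against control, in percent, with the number tested and the median log2 fold change in brackets. Dashed lines mark the 24.8% higher and 22.8% lower among all genes tested; not every list is drawn.

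Matrix proteases and the plasminogen system were lower in H3. Of 29 genes tested, 16 fell and 4 rose, with a median log2 fold change of -0.46. MMP10 (stromelysin 2) went from 36.3 and 29.7 CPM to 0.799 and 0.649 CPM. PLAU, the urokinase activator of plasminogen, went from 111 and 99.2 CPM to 36.0 and 43.9 CPM. PLAT, the tissue-type activator, went against the rest, from 1.199 and 0.849 CPM to 14.1 and 12.7 CPM (log2 fold change 2.84). Integrins and laminins moved in both directions, with 9 of 29 tested rising and 11 falling, where 24.8% of all genes tested rose and 22.8% fell. Their median was 0.05, and -0.13 once the medians of neighbouring genes were subtracted. LAMB2 and DAG1, a laminin chain and the laminin receptor dystroglycan, rose by 1.30 and 1.01, and ITGA2 and ITGB4 fell by 0.89 and 0.70.

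Promoters of the protease genes were searched for TGANTCA, the core bound by AP-1 factors, which reads the same on both strands. The window ran from 250 bases before to 50 bases after each RefSeq gene start, and 10555 tested genes had an entry. The letters stood in 3 of the 17 protease genes with an entry (MMP10, PLAUR and SERPINB2), or 17.6%, and in 7.5% of all 10555. All 3 fell, and of the 14 without the letters 6 fell and 3 rose, with a median log2 fold change of -0.24. The promoters of the 2 with the larger fall are shown because they carry the match, 102 bases before the start in SERPINB2 and 67 in MMP10, with the match in capitals. They are the 200 bases before the start, from RefSeq GRCh38.p14, SERPINB2 at chr18:63887505-63887704 on the plus strand and MMP10 at chr11:102780629-102780828 on the minus strand. A match describes the letters and does not show that a factor binds there.
SERPINB2: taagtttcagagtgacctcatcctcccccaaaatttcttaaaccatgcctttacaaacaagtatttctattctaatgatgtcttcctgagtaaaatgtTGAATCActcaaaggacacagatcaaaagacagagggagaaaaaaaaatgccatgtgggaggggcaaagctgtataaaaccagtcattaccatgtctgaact
MMP10: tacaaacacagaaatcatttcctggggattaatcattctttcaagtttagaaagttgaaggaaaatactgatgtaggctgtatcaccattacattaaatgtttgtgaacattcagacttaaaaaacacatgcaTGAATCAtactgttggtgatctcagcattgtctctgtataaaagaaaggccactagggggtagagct

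EGFR, ligands of the EGF family and most outputs of the ERK pathway were lower in H3, whereas the receptors ERBB2 and ERBB3 were higher. Among the 35 receptor tyrosine kinase and EGF ligand genes tested, 19 fell and 7 rose, with a median log2 fold change of -0.47. The shares over all genes tested were 22.8% lower and 24.8% higher. The ligand HBEGF went from 26.9 and 25.5 CPM to 3.20 and 3.65 CPM, AREG from 24.7 and 23.6 CPM to 3.80 and 3.55 CPM, and NRG1 from 162 and 159.9 CPM to 34.9 and 42.7 CPM. Their log2 fold changes were -2.62, -2.43 and -2.03. EGFR itself went from 587 and 556 CPM to 223 and 258 CPM, a log2 fold change of -1.25 ± 0.07 (SE, adjusted p = 1.4e-09). The EGFR means were 526 CPM in D4, 469 CPM in G4 and 308 CPM in G10, all above both H3 libraries.
ERBB2 had 4670.6 and 4928.6 CPM in the control and 6920.9 and 6312.8 CPM in H3, a log2 fold change of 0.46 (adjusted p = 2.5e-06), and ERBB3 rose by 0.59.

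Of the 32 genes listed as ERK pathway outputs, all of which were tested, 23 fell and 4 rose, with a median of -0.71. The shares over all genes tested were 22.8% lower and 24.8% higher. DUSP6, the phosphatase that dephosphorylates ERK, went from 73.1 and 70.0 CPM to 13.4 and 14.1 CPM, a log2 fold change of -2.30. FOSL1, an AP-1 subunit, went from 129 and 137 CPM to 42.4 and 39.9 CPM (-1.67). SPRY2, a feedback inhibitor of receptor signalling, went from 13.3 and 17.4 CPM to 5.30 and 4.75 CPM (-1.43). MYC fell by 0.84, from 149.7 and 168 CPM to 88.9 and 87.9 CPM, and CCND1 (cyclin D1) by 0.69, from 649 and 653 CPM to 404 and 402 CPM. The 4 that rose were DUSP2, EPHA4, SPRY1 and ETV4. DUSP2, a nuclear phosphatase of ERK, went from 6.90 and 9.44 CPM to 22.9 and 21.0 CPM (1.34 ± 0.16).

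Against the mean of the other 3 clones, 25 of the 32 outputs were lower in H3 and 3 were higher. The background was 17.7% lower and 27.3% higher over all genes tested, and the list's median difference was -0.67. With median-of-ratios size factors the background was 21.5% lower and 23.2% higher, and again 25 of the outputs were lower and 3 higher, with a median of -0.71. DUSP6 was lower by 2.53 and FOSL1 by 1.55, whereas DUSP2 was higher by 2.77. Among YAP and TEAD targets, 16 of 27 fell and 5 rose against the control, where 22.8% of all genes tested fell and 24.8% rose. Of these targets, 18 were lower in H3 than in the mean of the other clones. NT5E, an ecto-nucleotidase, went from 418 and 365 CPM to 81.5 and 89.1 CPM, and F3, tissue factor, from 154 and 141 CPM to 39.5 and 44.7 CPM. TGFB2 was the largest exception, rising from 8.59 and 7.35 CPM to 28.1 and 33.6 CPM.

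**Figure D3:**
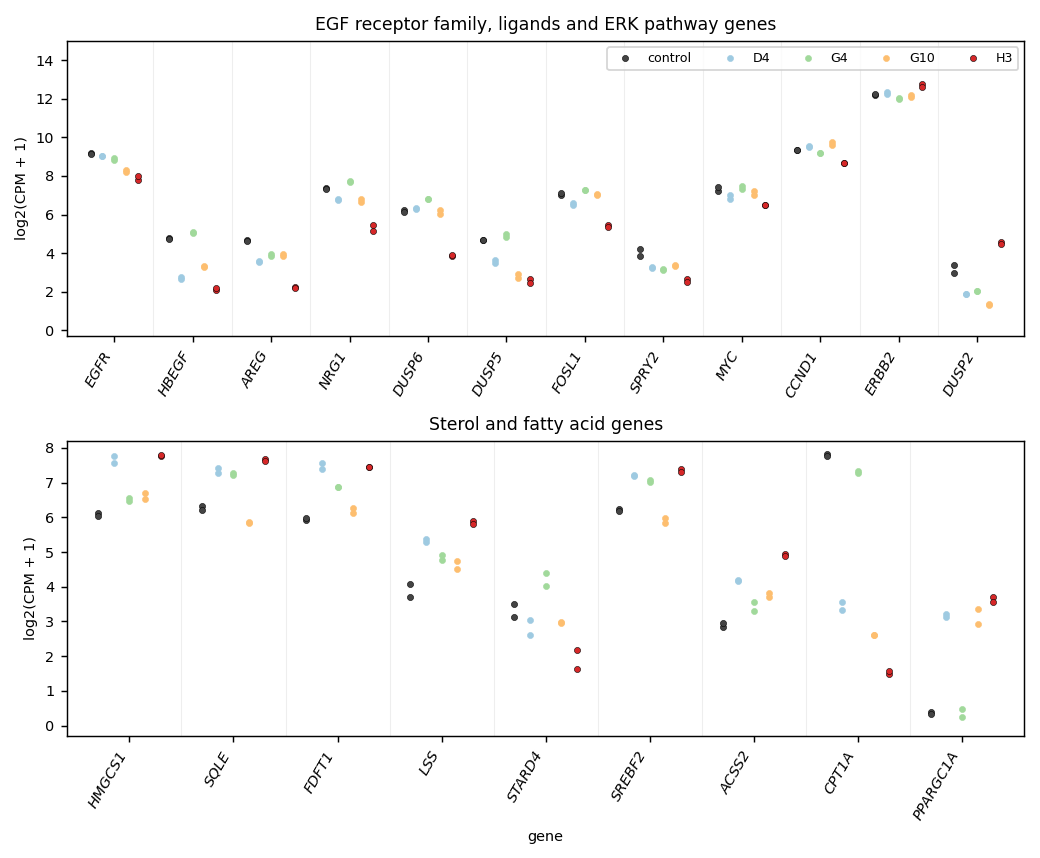
Levels of genes of the EGF receptor family and the ERK pathway (top) and of lipid metabolism (bottom) in every library, as log2(CPM + 1), 2 points per group. DUSP6 is at 13.4 and 14.1 CPM in H3 against 73.1 and 70.0 CPM in the control; HMGCS1 is at 216 and 221 CPM against 68.4 and 64.8 CPM.

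Cholesterol synthesis genes rose together. Of 25 genes of sterol synthesis and uptake tested, 19 rose and 2 fell, where 24.8% of all genes tested rose and 22.8% fell. The median log2 fold change of the list was 1.06. HMGCS1, which makes the precursor of mevalonate, went from 68.4 and 64.8 CPM to 216 and 221 CPM (1.70). Further along the pathway FDFT1 rose by 1.50, SQLE by 1.39 and LSS by 1.96, LSS from 12.1 and 15.99 CPM to 58.4 and 55.4 CPM. SREBF2, the transcription factor that drives the pathway, rose from 75.0 and 72.1 CPM to 166 and 156 CPM (1.12). The sterol carrier STARD4, among the 2 that fell, fell by 1.41. Against the mean of the other clones 19 were higher and 2 lower, with a median difference of 0.61. In that comparison 27.3% of all genes tested were higher and 17.7% lower.

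More fatty acid genes rose than fell as well, where 24.8% of all genes tested rose and 22.8% fell. Of the 27 synthesis genes tested, 14 rose and 4 fell, led by ACACB, a mitochondrial acetyl-CoA carboxylase (from 0.999 and 1.40 CPM to 8.20 and 8.34 CPM), and ACSS2, which makes acetyl-CoA from acetate (from 6.10 and 6.70 CPM to 29.5 and 28.8 CPM). FASN, fatty acid synthase, was at 370.5 and 514 CPM in the control and 515 and 449 CPM in H3, groups that overlap. Of the 25 oxidation genes tested, 16 rose and 4 fell, with a median of 0.40. PPARGC1A, a coactivator of mitochondrial genes, went from 0.3 and 0.25 CPM to 11.99 and 10.8 CPM, and DECR1, a reductase of unsaturated fatty acid oxidation, from 12.6 and 12.4 CPM to 35.7 and 37.5 CPM. CPT1A, described above, was among the 4 that fell, and CPT1B, its muscle isoform, rose by 0.94 from 26.3 and 31.1 CPM to 54.7 and 57.0 CPM. All but 1 of the 15 mitochondrially encoded genes rose, with a median of 0.32, and 18 of 35 nuclear genes of oxidative phosphorylation rose while 7 fell.

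G2/M genes were mostly higher in H3. Of the 39 G2/M genes tested, 35 rose and 1 (ECT2) fell, with a median log2 fold change of 0.50. ECT2 lies among genes that were lower in H3, and relative to them it was at 0.31. BUB1, a kinase of the spindle checkpoint, went from 66.9 and 62.2 CPM to 162 and 158 CPM (1.30), and CCNB1, cyclin B1, from 185 and 187 CPM to 262 and 266 CPM (0.50). PLK1, a mitotic kinase, was among the 3 that did not pass, at 156 and 175 CPM in the control and 158 and 142 CPM in H3. Of 40 G1/S and replication genes 10 rose and 10 fell, with a median of 0.01, shares near those of all genes tested (24.8% higher and 22.8% lower). Of 34 replication-dependent histone genes 14 entered the test, and of these 11 fell and 1 rose, with a median of -0.77. H1F0, a linker histone that is made outside replication but stands on that list, fell by 1.31 from 107 and 105 CPM to 41.8 and 42.5 CPM.

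Interferon response and antigen presentation genes were mostly higher, and genes of a mixed list of interleukin-1, chemokine and NF-kB genes mostly lower. For comparison with the counts of these lists, 24.8% of all genes tested rose and 22.8% fell. Of 32 type I interferon response genes tested, 22 rose and 4 fell, with a median log2 fold change of 0.47. Most were expressed at a few CPM: IFIT1 went from 1.30 and 1.25 CPM to 5.30 and 5.15 CPM, UBE2L6 (the enzyme that conjugates ISG15) from 2.80 and 2.40 CPM to 13.1 and 11.9 CPM, and IFI35 from 2.80 and 3.25 CPM to 10.5 and 11.1 CPM. ISG15 itself was at 5.10 and 7.60 CPM in the control and 5.65 and 4.25 CPM in H3, overlapping groups. The RNA sensors IFIH1 and DDX58 fell by 0.57 and 0.42. Of 21 antigen presentation genes 11 rose and 3 fell. NLRC5, the transactivator of class I genes, went from 2.00 and 2.60 CPM to 8.20 and 8.64 CPM (1.52), and HLA-B rose by 0.66. Of 27 interleukin-1, chemokine and NF-kB genes 15 fell and 4 rose, among them IL1A, from 40.7 and 35.9 CPM to 6.30 and 5.60 CPM, and IL1B, from 26.6 and 24.7 CPM to 7.20 and 7.29 CPM. The median of that list was -0.72, and -0.27 once the medians of neighbouring genes were subtracted.

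The core of the interferon response element, GAAANNGAA on 1 strand or TTCNNTTTC on the other, was found in the promoters of 17 of the 25 interferon response genes with a RefSeq entry (68.0%). Over all 10555 genes the share was 8.78%. Of the 17 with the letters 11 rose and 2 fell, with a median log2 fold change of 0.40. Of the 8 without them 6 rose, with a median of 0.98. BST2, IFIT1 and IFIT3 had the largest rises among those with the letters, and their 200 bases before the start are given with the matches in capitals. The 2 matches in BST2 overlap. The sequences are from RefSeq GRCh38.p14, BST2 at chr19:17405631-17405830 on the minus strand, IFIT1 at chr10:89392423-89392622 and IFIT3 at chr10:89327797-89327996 on the plus strand.
BST2: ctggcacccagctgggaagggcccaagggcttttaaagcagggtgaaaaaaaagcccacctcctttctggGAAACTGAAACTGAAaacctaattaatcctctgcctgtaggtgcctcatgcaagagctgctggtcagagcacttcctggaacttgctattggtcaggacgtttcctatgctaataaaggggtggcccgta
IFIT1: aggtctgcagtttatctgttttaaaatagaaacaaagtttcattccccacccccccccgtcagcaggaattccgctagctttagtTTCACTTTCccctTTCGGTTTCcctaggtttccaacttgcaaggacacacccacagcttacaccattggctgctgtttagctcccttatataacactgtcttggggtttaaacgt
IFIT3: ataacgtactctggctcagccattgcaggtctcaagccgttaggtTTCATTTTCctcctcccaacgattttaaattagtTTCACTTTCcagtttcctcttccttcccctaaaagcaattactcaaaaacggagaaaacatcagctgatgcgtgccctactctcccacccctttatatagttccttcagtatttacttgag

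The same search was run for 2 further elements. TCACNCCAC, a sterol regulatory element (GTGGNGTGA on the other strand), stood in 1 of 18 cholesterol genes with an entry, SREBF2, and in 1.53% of all 10555. TGATGNAA, an amino acid response element (TTNCATCA on the other strand), stood in 4 of 32 ATF4 and unfolded protein response genes, or 12.5%, and in 2.81% of all. Those 4 (ASNS, CHAC1, HERPUD1 and SLC3A2) fell, and of the 28 without the letters 15 fell and 7 rose.

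Genes of the pathway in which SHIP2 acts moved in both directions, as did all genes tested (24.8% higher and 22.8% lower). Of 34 phosphoinositide phosphatase and kinase genes tested, 14 rose and 9 fell, with a median log2 fold change of 0.12. INPP5J, another inositol 5-phosphatase, went from 0.899 and 1.099 CPM to 9.69 and 11.1 CPM (2.51). PIK3C2B, a class II kinase, went from 50.6 and 54.7 CPM to 114 and 117 CPM (1.12). The regulatory subunits PIK3R1, PIK3R2 and PIK3R3 rose by 0.84, 0.89 and 1.16, and the catalytic subunit PIK3CA fell by 0.76, from 67.3 and 60.6 CPM to 33.2 and 41.7 CPM. AKT1 (0.08, adjusted p = 0.39) and AKT2 (-0.17, adjusted p = 0.054) did not pass the test.

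Of 30 AKT, mTOR and FOXO genes tested, 12 fell and 7 rose, where 22.8% of all genes tested fell and 24.8% rose. The median of the list was -0.11, and 0.016 once the medians of neighbouring genes were subtracted. TXNIP, an inhibitor of thioredoxin and of glucose uptake, went from 150.4 and 139 CPM to 19.7 and 21.8 CPM (-2.74), and SESN3 fell by 2.15. CAT (catalase) rose from 26.3 and 25.4 CPM to 73.3 and 70.3 CPM, and FOXO1 from 20.04 and 19.8 CPM to 37.3 and 40.2 CPM. Of 35 endocytosis genes and SHIP2 partners 15 fell and 8 rose, beside the same shares over all genes, with a median of -0.09. CBL, the ubiquitin ligase of activated receptors, fell by 1.07 from 97.9 and 89.3 CPM to 39.8 and 48.7 CPM, and FCHSD2, a regulator of clathrin coats, by 1.13. CBL, FCHSD2 and SESN3 lie in a stretch of chromosome 11 where most genes were lower in H3, described below.

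Stress genes moved in both directions, and they were not counted by branch. Over all genes tested 24.8% rose and 22.8% fell. Of 36 genes of the unfolded protein response and ATF4 tested, 20 fell and 8 rose, with a median log2 fold change of -0.29. The amino acid stress genes TRIB3, ASNS and CHAC1 fell by 1.30, 1.03 and 1.02, while the chaperone HSP90B1 rose by 0.68 from 761 and 732 CPM to 1203 and 1184 CPM. Of 33 NRF2 targets and metallothioneins 20 rose and 6 fell. AKR1C2, a ketosteroid reductase, went from 480.5 and 440.1 CPM to 1170.4 and 1043 CPM (1.26), and ALDH1A3, a retinaldehyde dehydrogenase, from 441 and 429 CPM to 1132 and 1138 CPM (1.38).

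Log2 fold changes in H3 also varied with position along chromosomes. Genes whose mean reached 5 CPM were split into 244 runs of about 50 neighbours, and 26 runs had a median log2 fold change of 0.3 or more and 22 of -0.3 or less. On chromosome 11 the last 6 runs (hg38 chr11:66842835-134265855) had medians of -0.57 to -0.49, with 220 of 300 genes lower and 17 higher. Over those runs the medians were -0.31 to 0.03 in D4, -0.23 to -0.07 in G4 and -0.21 to 0.02 in G10, and H3 minus the mean of the other clones gave -0.52 to -0.25. INPPL1, CPT1A, GSTP1, CCND1, ME3, MMP1, MMP10 and FLI1 lie there. Subtracting the neighbours left CPT1A at -5.79, MMP1 at -5.59 and ME3 at -3.34, and CCND1 at -0.21.

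A further 5 stretches held at least 3 neighbouring runs past 0.3 in the same direction. The first 5 runs of chromosome 16 (chr16:46407-29454964) had medians of -0.66 to -0.56, with 192 of 270 genes lower and 5 higher, and the corresponding ranges were -0.44 to -0.33 in D4, -0.12 to 0.01 in G4 and -0.37 to -0.12 in G10. PLK1 lies there, and its neighbours had a median of -0.73. The end of chromosome 3 (chr3:131361898-198043720) had medians of -0.62 to -0.42 over 5 runs, and SOX2, TP63 and PIK3CA lie in it. The other clones had -0.49 to -0.30 (D4), -0.16 to -0.05 (G4) and -0.50 to -0.23 (G10) there. A stretch of its short arm (chr3:40477131-69542583) was higher, at 0.33 to 0.48 over 4 runs, with 0.25 to 0.39 in D4, -0.14 to -0.01 in G4 and 0.25 to 0.30 in G10. The end of chromosome 2 (chr2:191245185-241768816) was higher by 0.32 to 0.45 over 4 runs, with 0.08 to 0.34 in D4, 0.22 to 0.44 in G4 and 0.18 to 0.32 in G10. On chromosome 8 a stretch of 3 runs (chr8:51817575-109345953) was higher by 0.52 to 0.59, against -0.07 to -0.01 in D4, 0.17 to 0.23 in G4 and 0.11 to 0.16 in G10. With the neighbours' medians subtracted, 6873 genes were called in place of 8076. The cause of these medians was not tested.

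Some of the genes described above moved less relative to their neighbours than relative to the control. PIK3CA (-0.21, adjusted p = 0.152), EPHA4 (0.14, adjusted p = 0.234) and KRT5 (-0.04, adjusted p = 0.819) no longer passed the test. TP63 was at -0.28, CBL at -0.51 and FCHSD2 at -0.65, all still called. KRT8 and KRT18, which lie side by side, were at 0.71 and 0.62, LAMB2 at 0.86, DAG1 at 0.63, DECR1 at 0.94, PIK3C2B at 0.74 and PIK3R2 at 0.42, and these too were called. PLK1 stood above the median of its neighbours, at 0.59 (adjusted p = 2.2e-05). These p-values and calls take the neighbours' median as fixed. They do not measure the spread among the neighbouring genes.

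**Figure D4:**
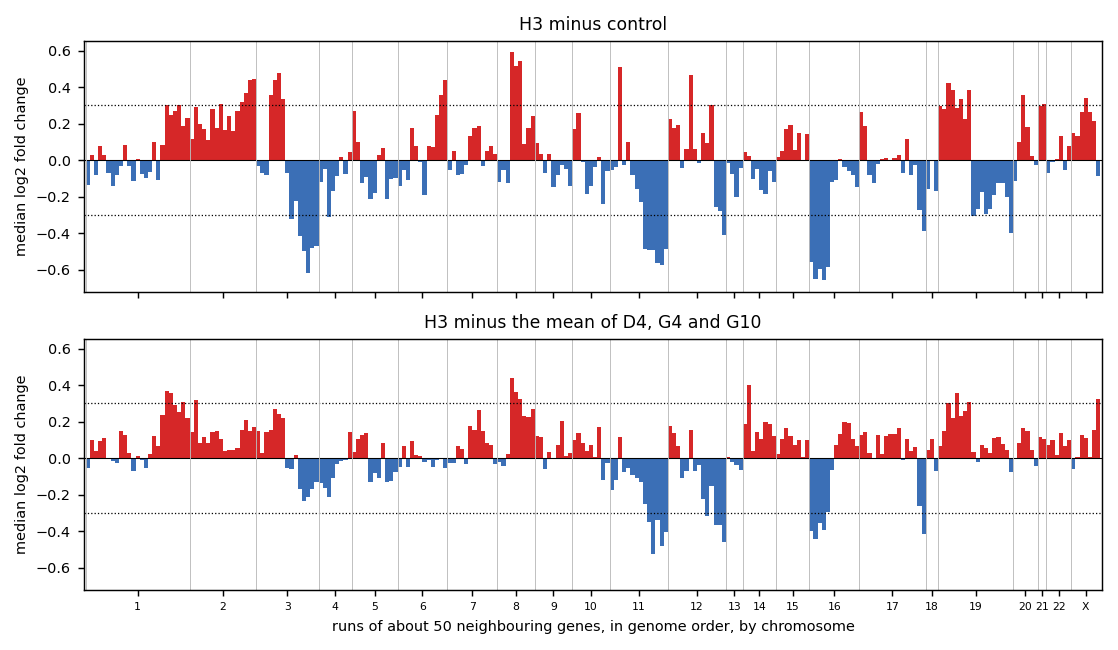
Median log2 fold change of each of 244 runs of about 50 neighbouring genes, in genome order, for H3 minus control (top) and H3 minus the mean of D4, G4 and G10 (bottom). Dotted lines mark 0.3 and -0.3, and grey lines chromosome ends; the last 6 runs of chromosome 11 are at -0.57 to -0.49 in the top panel.

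Clone H3 also differed from the other knock-out clones, a comparison in which the control cancels from the difference but not from the choice of genes. Genes entered by their levels in the 4 H3 and control libraries. A gene high only in H3 could thus enter, and a gene expressed only in D4, G4 or G10 could not. The effect of this filter on the split was not tested. Of the 16976 genes, 4626 (27.3%) were higher and 3005 (17.7%) lower in H3 than in the mean of D4, G4 and G10. The split also depended on the scaling, with 3939 higher and 3658 lower under median-of-ratios size factors. It was 3552 and 3120 with neighbours' medians subtracted. Without H3 replicate 1 it was 3106 higher and 1829 lower, and without H3 replicate 2 it was 3049 and 2278. The 8 largest differences upward, with both H3 libraries above all 6 others, were CES1, PADI4, MCF2L, ATOH8, DUSP2, DUSP9, LUM and PLIN4. PADI4, a protein-citrullinating enzyme, had 15.6 and 17.0 CPM in H3, 2.12 CPM in D4, 0.55 CPM in G4 and 0.625 CPM in G10, a difference of 3.13. DUSP9, an ERK phosphatase of the cytoplasm, had 30.8 and 27.2 CPM in H3 against 8.79 and 12.9 CPM in the control and means of 1.90 to 6.92 CPM in the other clones. PLIN4, which coats lipid droplets, had 36.1 and 31.7 CPM in H3 and means of 4.37 to 6.62 CPM in the other clones. ATOH8, a helix-loop-helix transcription factor, had 71.1 and 65.0 CPM in H3, and its mean in D4 was 27.5 CPM.

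The 8 largest differences downward were CDH6, WNT7A, ME3, IGF2, CPT1A, MMP1, SRGN and INS-IGF2. WNT7A, a secreted WNT ligand, had 0.6 and 0.649 CPM in H3 against 16.8 and 23.2 CPM in the control, 9.07 CPM in D4, 26.2 CPM in G4 and 21.1 CPM in G10. SRGN, the core protein of a secretory granule proteoglycan, had 0.2 and 0.4 CPM in H3 and 0.85 CPM in G10, both low, against 26.8 CPM in D4 and 15.4 CPM in G4.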

How the data were processed

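Total RNA of 10 libraries was sequenced, and per the submitters' processing notes the tools were STAR 2.5.3a and HTSeq with the hg38 build. The authors deposited CPM values per gene, and strand and multi-mapping settings are not given in the sources used here. The values lie on steps shared by all libraries, as if reads had first been scaled to 1 common total and rounded. Read numbers were estimated by undoing this scaling, and were used for depth, floors, ratios of reads and the limma-voom alternative. Since the values are CPM and not raw counts, the main test was limma 3.58.1 in R 4.3.3 on log2(CPM + 1), with trended, robust variance, over all 10 libraries (5 residual degrees of freedom) and Benjamini-Hochberg adjustment over all genes tested at 0.05. No count model was used. The procedure was tested on simulated data. Positions are from GENCODE 29 for 58039 of 58302 genes, and promoters from RefSeq GRCh38.p14. Tables and figures were made with Python 3.11.15, numpy 2.4.6, pandas 2.3.3 and matplotlib 3.10.9.

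The gene lists, members and tests were chosen with earlier results of these data known. Genes were named by rule: the 15 largest rises and falls against the control and the 8 largest each way against the other clones, with non-overlapping libraries and a mean over the 4 libraries of 5 CPM or more, up to 5 members of each list, genes present in 1 group and under 3 reads in the other, and a fixed set of SHIP2, signalling and lineage genes. Other members named were chosen after their values were seen. Results for some of these genes are not reported here.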

Additional observations from a re-analysis of the deposited data

Results flagged for a closer look

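Clone H3 differed from the mean of D4, G4 and G10 at 7631 genes in the direct limma test of that difference (adjusted p under 0.05). The differences on the log2 scale upward were 3.80 for CES1, 3.13 for PADI4, 3.04 for MCF2L, 2.92 for ATOH8 and 2.77 for DUSP2. DUSP9 and LUM were each higher by 2.5, and PLIN4 by 2.46. Downward they were -3.50 for CDH6, -3.49 for WNT7A, -3.39 for ME3, -3.01 for IGF2 and -2.92 for CPT1A, followed by -2.91 for MMP1, -2.86 for SRGN and -2.82 for INS-IGF2. These genes were chosen for passing the test with both H3 libraries on 1 side of all 6 libraries of the other clones. A mean of 5 CPM or more over the 4 H3 and control libraries was also required. Their passing the test is therefore no separate result.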

How the results depend on the processing

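The 8076 genes called against the control became 6203 to 6566 when 1 library of either group was left out and 6696 to 9567 under the other settings. The 1271 genes at 2-fold or more became 841 with a mean of at least 5 CPM required, which tests fewer genes, 1991 with limma-voom on estimated reads and 1887 with a pseudocount of 0.1, both of which compress low genes less. They became 1273 to 1345 with 1 library left out. The 7631 genes that differed from the other clones became 4935 without H3 replicate 1 and 5327 without H3 replicate 2. The log2 fold change of INPPL1 was -0.78 to -0.69 with 1 library left out. With the medians of neighbouring genes subtracted, PLK1 was at 0.59, RPS2 at 0.24, RRS1 at -0.12, the AKT, mTOR and FOXO median at 0.016 and the Notch median at 0.093. The same subtraction took the median of integrins and laminins from 0.05 to -0.13, of G1/S genes from 0.01 to -0.06 and of apoptosis regulators from -0.04 to 0.07. Under other settings the sign of the median changed for endothelial and immune markers, WNT genes and Notch genes. For the 2 tested endothelial and immune markers it went from -0.30 to 0.002 with limma-voom. With no filter it was 0.069 for that list and 0.059 for WNT genes, medians that take in further members of each list. With 1 library left out it was -0.217 to 0.027 for WNT genes and -0.142 to 0.002 for Notch genes. For WNT genes the median was 0.027 and 0.010 without control replicate 1 and 2, and for Notch genes 0.002 without H3 replicate 2. The cause was not tested. Of 3243 values of named genes under alternatives, 3203 kept their side of the threshold, 23 lost the call and 14 gained it. The other 3 changed sign with a call in the main or the alternative setting. Sign changes without a call in either setting stand among the 3203. AKT2 is such a case, going from -0.17 to 0.009 with neighbours' medians subtracted.

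A replicate block gave 8702 calls. Deviations of same-numbered libraries correlated at 0.363 to 0.595 among the control, D4, G4 and G10, but at -0.347 to -0.184 between H3 and those groups, so the numbers do not pair H3 with the control. With the H3 numbers crossed, chosen after the data were seen, it gave 9567.

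Clone H3 is 1 clone and the control 1 colony, so clone and knock-out cannot be told apart. DESeq2 was not run, since the values are not counts. A change under 3 reads a library is not detectable at this depth.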

Other observations

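Over all genes tested, 24.8% were higher and 22.8% lower in H3. Of 31 WNT genes tested 10 rose and 12 fell. WNT5A, a ligand of the non-canonical branch, went from 0.1 and 0.2 CPM to 4.95 and 4.85 CPM, and LGR4, a receptor of R-spondins, from 10.4 and 10.1 CPM to 30.9 and 31.2 CPM. WNT9A went from 17.1 and 19.9 CPM to 2.85 and 2.65 CPM. Among 36 TGF-beta and BMP genes 8 rose and 15 fell. FST, follistatin, an inhibitor of activins, went from 57.3 and 55.8 CPM to 4.35 and 5.15 CPM (log2 fold change -3.33), and BAMBI, a decoy receptor, from 9.49 and 8.49 CPM to 26.1 and 25.2 CPM (1.42). Of 23 Notch genes 5 rose and 6 fell, shares near those of all genes. The Notch ligand JAG1 went from 505 and 491 CPM to 147 and 159.97 CPM.

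Of 29 neural adhesion and guidance genes 10 rose and 11 fell, where 24.8% of all genes tested rose and 22.8% fell. NAV3, a microtubule-binding protein, went from 23.04 and 17.6 CPM to 0.45 and 0.55 CPM, and CNTNAP2, a neurexin-family protein, from 1.099 and 0.849 CPM to 13.9 and 12.6 CPM. Among 22 ion channels and transporters 7 rose and 7 fell. ANO1, a calcium-activated chloride channel, went from 135 and 146 CPM to 36.5 and 38.8 CPM, and TRPV6, a calcium channel, from 3.60 and 4.40 CPM to 15.04 and 17.6 CPM. Of 37 hypoxia and glycolysis genes 8 rose and 12 fell, beside the same shares over all genes, with a median log2 fold change of -0.06. VEGFA went from 167 and 158 CPM to 57.9 and 58.6 CPM, while CA9, a carbonic anhydrase, went from 0.45 and 0.25 CPM to 4.85 and 4.75 CPM.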
